A study of Oryza sativa with 12 samples.

Results

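The gibberellin genes of rice were followed through leaves of the *osnadk1* mutant and its wild type (WT), with and without drought. Of 9 genes sought by symbol or synonym, 4 were found as a gene of that name in the reference, among 17905 genes with a probe set of their own: *GA20OX2*, *GA20OX3*, *GID1* and *SLR1*. They have 5 (2 of *GID1*) of the 57381 probe sets of the Affymetrix rice array, each assigned to 1 gene. *GA20OX1*, *GA3OX1*, *GA3OX2*, *GA2OX1* and *GA2OX3* had no gene of that name in the reference and were not analysed here.

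Gibberellins are diterpenoid hormones that promote stem and leaf elongation. GA 20-oxidases and GA 3-oxidases carry out the last steps to the active hormone, and GA 2-oxidases inactivate it. The active hormone binds the receptor GID1, which then binds SLR1, the DELLA protein of rice that represses growth, and marks it for breakdown. *GA20OX2* is the semidwarf gene *sd1* of short-strawed rice varieties, *GA20OX3* encodes a further GA 20-oxidase, and in several plants the active hormone lowers the transcripts of GA 20-oxidases and of the receptor.

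RNA came from the youngest fully expanded leaves of *osnadk1* and WT plants of cv. Dongjin, labelled as 2.5 months old, on day 15 of drought (soil moisture 8.5%) and on day 0 under normal growth (soil moisture 47.3%), so drought cannot be told apart from the days between the harvests. The 4 groups, *osnadk1* drought, WT drought, *osnadk1* normal growth and WT normal growth, have 3 arrays each, labelled as biological replicates. *osnadk1* is 1 line with a T-DNA in the second intron of *OsNADK1*, which codes for an NAD kinase. Each pot held *osnadk1* and WT plants side by side, and the WT arrays are marked as a re-analysis. The mutant was profiled because its plants are sensitive to drought. The labels do not say which plants or pots stand behind each array, so the spread that p-values measure here may be technical.

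By the prefix of its label, each array belongs to 1 of 2 sets of 6, called here job A and job B on the inference that they are hybridisation jobs. Job A holds replicates 1 and 2 of *osnadk1* and replicate 1 of WT in each condition, and job B holds the others. Every value below is a log2 MAS5 signal, and MAS5 is Affymetrix's summary of the probes of a probe set on 1 array. The *OsNADK1* signal was 3.96 to 5.65 on *osnadk1* arrays and 9.43 to 10.27 on WT arrays. As a check of the tissue, 9 or 10 of 10 probe sets of leaf markers, from 3 genes, lay above their array's median on every array. Of 4 shoot meristem probe sets none did, except 1 on the WT normal growth replicate 1 array, and of the 2 root probe sets, that of the silicon transporter gene *LSI1* did on every array and that of *LSI2*, at 0 to 2.54, on none. The 3 normal growth arrays of job A stood apart, between 121.4 and 140.4 on the first principal component (33.9% of the variance), against -66.3 to -26.5 for the other 9. Under drought, 1 of 2 probe sets of the dehydrin gene *RAB21*, a marker of water deficit, was at 1.98 and 2.20 on *osnadk1* replicates 1 and 2 (job A), where the range over the normal growth arrays was 0.92 to 2.03, and at 9.82 on *osnadk1* replicate 3, 6.85 on WT replicate 1 and 11.77 and 13.03 on WT replicates 2 and 3. The second *RAB21* probe set was at 5.52 and 4.75 on *osnadk1* drought replicates 1 and 2, where the normal growth arrays lay at 2.38 to 5.29, and *RAB16C*, another dehydrin gene, was at 9.62 and 8.74 there, where the normal growth arrays lay at 2.38 to 8.46.

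The 4 tested probe sets lay above the median of their array on all 12 arrays. A second *GID1* probe set lay between 0.34 and 4.82, below its array's median on all 12, and was not tested. Leaf tissue was measured in bulk, so fewer cells that express a gene and less RNA per cell cannot be told apart.

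*GA20OX2* was called in 3 of the 10 comparisons made, all of them between or within the jobs. In *osnadk1* its signal was 7.24, 7.52 and 7.22 under drought, against 9.16, 8.94 and 7.64 under normal growth. In WT it was 6.11, 7.28 and 7.45 under drought, against 9.20, 6.45 and 7.06 under normal growth. The 3 highest values came from the normal growth arrays of job A, 2 of *osnadk1* and 1 of WT. The other 9 arrays lay between 6.11 and 7.64. All 3 calls use those normal growth arrays of job A, so the calls are not independent of one another.

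Under normal growth *GA20OX2* averaged 9.10 ± 0.14 in job A and 7.05 ± 0.60 in job B (SD, n = 3 each), and the arrays did not overlap. With the genotype difference in the model, it was higher in job A by 1.92 ± 0.35 on the log2 scale (± SE here and below, 3.80-fold; limma, adjusted p = 0.00271). It was the only 1 of the 4 genes called in this comparison, in which 24.6% of the 32110 probe sets tested were called, 9.24% as higher and 15.4% as lower, and 38.3% had no overlap between the jobs. Without WT normal growth replicate 1 the difference was 1.40 and the call ended (limma, adjusted p = 0.0513). *CCA1*, a morning gene of the circadian clock, moved with it. The signal of *CCA1* was 13.34 and 13.02 on the normal growth arrays of *osnadk1* in job A and 13.79 on that of WT, against 7.31 to 8.63 on the other 9 arrays. Of 8 clock probe sets tested, 4 were higher and 3 lower in job A. The signal summed over all 9 clock probe sets, tested or not, was 16.14 to 16.36 in job A and 15.97 to 16.12 in job B. Of 10 leaf probe sets 5 were higher, with sums of 17.97 to 18.19 in job A and 16.92 to 17.15 in job B. The 10 come from only 3 genes, *RCA*, *CAB2R* and *RBCS*. For 1 probe set of each, job A lay at 15.28 to 15.49, 14.86 to 15.14 and 14.18 to 14.72. Job B lay at 13.30 to 13.43, 14.11 to 14.45 and 14.32 to 14.64. The part of the clock and leaf genes in the *GA20OX2* difference was not tested.

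In job A, *GA20OX2* fell under drought, to 6.96 ± 0.75 on the drought arrays, against 9.10 ± 0.14 on the normal growth arrays (SD, n = 3 each), with a difference of -2.17 ± 0.34 (4.51-fold lower; limma, adjusted p = 0.00115). The call held in all 18 alternative settings, with limma adjusted p from 0.000458 to 0.0184. None of these leaves out the 3 normal growth arrays of job A together, without which the comparison cannot be made. Whether the call depends on what sets those arrays apart was not tested. In job B it was 7.32 ± 0.12 under drought and 7.05 ± 0.60 under normal growth (SD, n = 3 each), and the difference of 0.30 ± 0.34 did not pass the test (limma, adjusted p = 0.799; 95% interval -0.46 to 1.06). The job by drought interaction, a comparison added after the job differences were seen, was -2.47 ± 0.50 (limma, adjusted p = 0.00892), where 13.2% of all probe sets were called. Without WT drought replicate 1, on which *GA20OX2* was lowest, the interaction was -1.77 and was no longer called (limma, adjusted p = 0.0588).

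**Figure D1:**
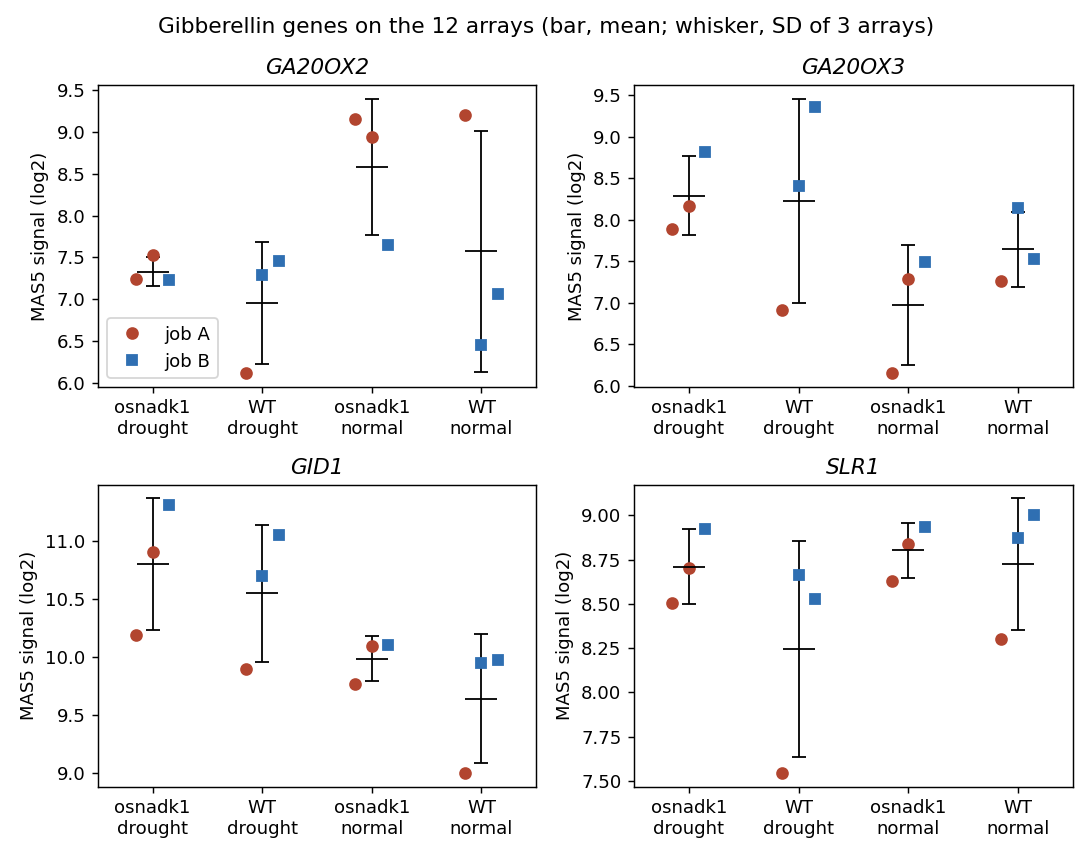
Log2 MAS5 signal of *GA20OX2*, *GA20OX3*, *GID1* and *SLR1* on the 12 arrays, by group along the horizontal axis, with job A as circles and job B as squares (bar, mean; whisker, SD of 3 arrays). *GA20OX2* is highest on the 3 normal growth arrays of job A, 9.16, 8.94 and 9.20, and at 7.64 or below on the other 9.

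*GA20OX3*, the second GA 20-oxidase gene, did not share this pattern. Its signal in *osnadk1* was 7.88, 8.17 and 8.81 under drought, against 6.15, 7.28 and 7.49 under normal growth. In WT it was 6.91, 8.41 and 9.36 under drought, against 7.27, 8.14 and 7.52 under normal growth. The *osnadk1* arrays did not overlap between the conditions, whereas the WT arrays did. The difference between drought and normal growth was 1.31 ± 0.57 in *osnadk1* (limma, adjusted p = 0.403) and 0.58 ± 0.57 in WT (limma, adjusted p = 0.781). In *osnadk1* it was 0.80 without the 3 normal growth arrays of job A and 1.84 without drought replicates 1 and 2, each with 1 array left in a group. In WT it was 0.39 without those 3 arrays, 0.015 without drought replicate 3 and 1.24 without drought replicate 1. Within job A it was 0.59 ± 0.39 (limma, adjusted p = 0.311), and within job B, where the arrays did not overlap, 1.30 ± 0.39 (limma, adjusted p = 0.162). The lowest drought value was that of WT replicate 1, in job A. On the 3 drought arrays with *RAB21* near 10 or above, all of job B, *GA20OX3* was at 8.41 to 9.36, and on the other 3, all of job A, at 6.91 to 8.17.

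*GID1*, the receptor gene, was higher under drought in both genotypes and both jobs, although the test was passed only in job A. Its signal in *osnadk1* was 10.19, 10.90 and 11.31 under drought, against 9.76, 10.09 and 10.10 under normal growth. In WT it was 9.90, 10.70 and 11.05 under drought, against 9.00, 9.95 and 9.98 under normal growth. The *osnadk1* arrays of the 2 conditions did not overlap, and in WT 1 drought array, replicate 1, lay within the range of normal growth. Drought arrays exceeded normal growth arrays of the same genotype and job by 0.62 in *osnadk1* job A, 1.21 in *osnadk1* job B, 0.90 in WT job A and 0.91 in WT job B. 

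The difference between drought and normal growth in *GID1* was 0.82 ± 0.37 in *osnadk1* (limma, adjusted p = 0.403) and 0.91 ± 0.37 in WT (limma, adjusted p = 0.452), neither past the test. The value in *osnadk1* was 1.32 without drought replicates 1 and 2, which leaves 1 drought array. That in WT was 0.59 without the 3 normal growth arrays of job A. Within job A it was 10.33 ± 0.52 under drought and 9.62 ± 0.56 under normal growth (SD, n = 3 each), a rise of 0.71 ± 0.22 (1.64-fold; limma, adjusted p = 0.0424) with overlapping arrays. Within job B it was 11.02 ± 0.31 under drought and 10.01 ± 0.08 under normal growth (SD, n = 3 each), a difference of 1.01 ± 0.22 (2.01-fold; limma, adjusted p = 0.0641) with no overlap. The job A call is close to the threshold and ended in 12 of 18 alternative settings, with *GID1* at 0.38 without WT normal growth replicate 1 (limma, adjusted p = 0.301). That in job B was reached without the same array (1.08; limma, adjusted p = 0.0162).

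Of the 4 genes, *GA20OX2* (lower) and *GID1* (higher) were called for drought in job A, where 24.6% of all probe sets were called (15.7% higher, 8.86% lower) and 37.4% had no overlap. None was called in job B, where 1.32% were. At an unadjusted p under 0.05, job B had 2, *GA20OX3* and *GID1*, where 13% of all probe sets passed. Arrays that did not overlap between conditions in job B occurred for 2 of the 4 genes and for 21.6% of all probe sets. The drought and ABA markers had more calls in job B, unlike the 4 genes. Of 13 probe sets, 4 were higher and 1 lower under drought in job A, and 7 were higher in job B. The signal summed over all 18 probe sets of that list, tested or not, weighs those with the highest signals most. In job A this sum was 13.28 to 13.59 under drought and 13.72 to 13.86 under normal growth. In job B it was 14.02 to 15.51 under drought and 13.16 to 13.46 under normal growth. The part of this in the gibberellin genes was not tested.

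*SLR1*, the DELLA repressor gene, had the narrowest range of the 4 genes over the 12 arrays. In *osnadk1* its signal was 8.51, 8.70 and 8.93 under drought, against 8.63, 8.84 and 8.94 under normal growth. In WT it was 7.55, 8.66 and 8.53 under drought, against 8.30, 8.87 and 9.00 under normal growth. One array, WT drought replicate 1, lay below the rest, and conditions overlapped in both genotypes. Drought against normal growth gave -0.09 ± 0.29 in *osnadk1* (limma, adjusted p = 0.909; 95% interval -0.74 to 0.56) and -0.48 ± 0.29 in WT (limma, adjusted p = 0.634; 95% interval -1.13 to 0.17).

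Across all 12 arrays, no gene of the 4 was called for drought in WT, where 0.00623% of all probe sets were called, or in *osnadk1*, where 0% were. This model has no job term. With job as a block the shares of all probe sets were 0.579% in WT and 0.0187% in *osnadk1*, and none of the 4 genes was called. Without the block, at an unadjusted p under 0.05, there was 1, *GID1*, in WT (9.76% of all probe sets), and in *osnadk1* 2, *GA20OX3* and *GID1* (12.4%). No gene of the 4 was free of overlap in WT, against 17.9% of all probe sets. Both of these and *GA20OX2*, with a difference of -1.25 ± 0.66 (limma, adjusted p = 0.437), had no overlap between the *osnadk1* conditions, as had 16.9% of all probe sets. Without the 3 normal growth arrays of job A, which leaves 1 *osnadk1* array of normal growth, that *GA20OX2* difference was -0.31. In WT, *GA20OX2* differed by -0.62 ± 0.66 (limma, adjusted p = 0.800), and leaving out the same 3 arrays gave 0.20.

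**Figure D2:**
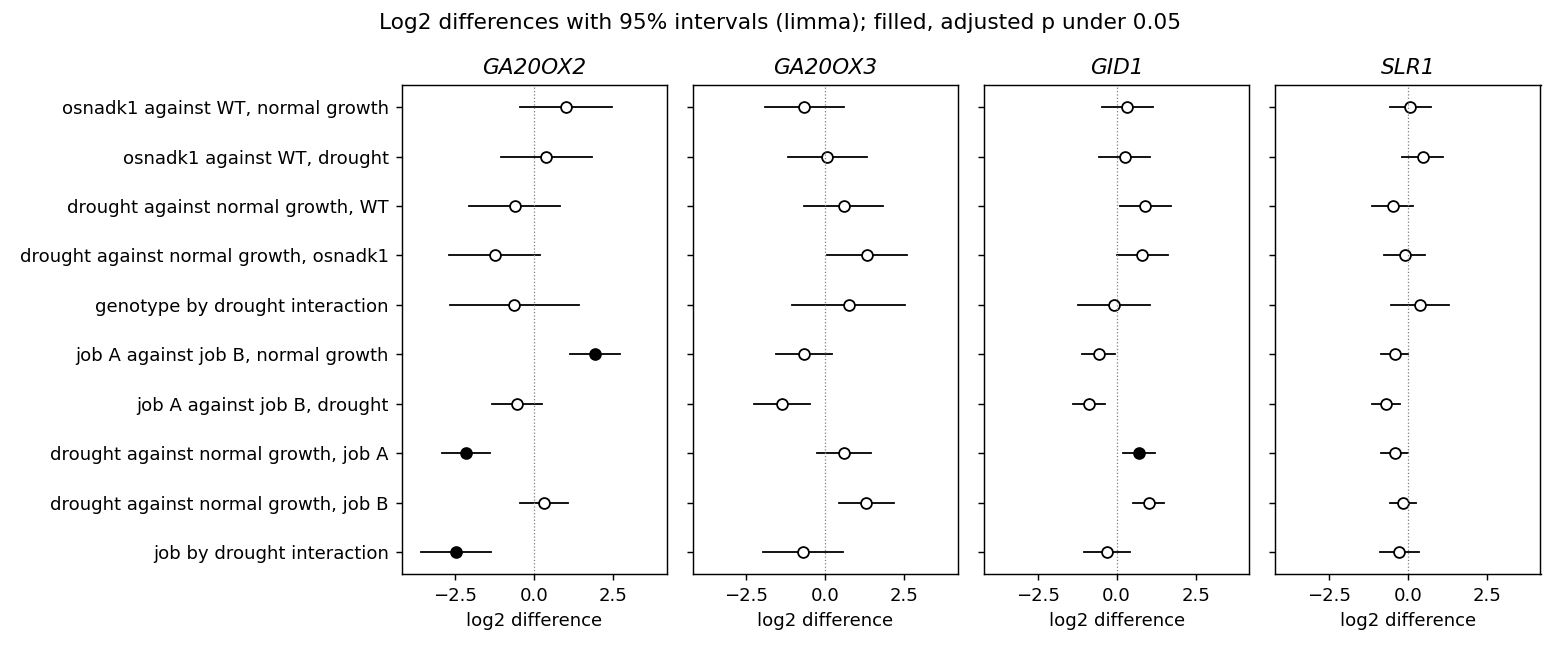
Log2 difference of each gene (horizontal axis, with its 95% interval) in the 10 comparisons listed down the side, filled where the limma adjusted p is under 0.05. Filled points are *GA20OX2* in job A against job B under normal growth (1.92), drought in job A (-2.17) and job by drought (-2.47), and *GID1* for drought in job A (0.71).

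Knockout of *OsNADK1* was the question of the study, and none of the 4 genes passed the test between the genotypes. Under normal growth 0 of 4 were called, where 0.146% of all probe sets were, and at an unadjusted p under 0.05 also 0, where 6.04% passed. Under drought 0 of 4 were called, where 0.0623% of all probe sets were, and 0 at an unadjusted p under 0.05, where 5.28% passed. These counts are from the model of the group means, which has no job term. With a job term, given below, *GID1* in both conditions and *SLR1* under drought differed by more beside their SE. No count at an unadjusted p was made there. Arrays of the genotypes overlapped for each of the 4 genes in both conditions, and were free of overlap for 7.81% of all probe sets under normal growth and 15.2% under drought. *GA20OX2* averaged 8.58 ± 0.82 in *osnadk1* and 7.57 ± 1.45 in WT under normal growth (SD, n = 3 each), a difference of 1.01 ± 0.66 (limma, adjusted p = 0.859; 95% interval -0.43 to 2.46). As *osnadk1* has 2 job A arrays and WT 1, the job difference enters here. Within job A the genotypes differed by -0.15 and within job B by 0.89, and a job term for each condition gave 0.37 ± 0.35 (limma, adjusted p = 0.822). Under drought the difference was 0.38 ± 0.66 over all arrays (limma, adjusted p = 0.999), 1.27 in job A and -0.14 in job B.

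For *GA20OX3* *osnadk1* differed from WT by -0.67 ± 0.57 under normal growth (limma, adjusted p = 0.867), and the drought arrays gave 0.06 ± 0.57 (limma, adjusted p = 0.999). Within job A these *GA20OX3* values were -0.55 and 1.12, within job B -0.34 and -0.07, and a job term for each condition gave -0.45 ± 0.40 and 0.52 ± 0.40 (limma, adjusted p = 0.807 and 0.786). Without *osnadk1* drought replicates 1 and 2, which leaves 1 *osnadk1* drought array, the drought value was 0.59. *GID1* differed by 0.34 ± 0.37 under normal growth (limma, adjusted p = 0.883), and the drought arrays gave 0.25 ± 0.37 (limma, adjusted p = 0.999). With a job term for each condition these *GID1* values became 0.53 ± 0.23 and 0.54 ± 0.23 (limma, adjusted p = 0.535 and 0.514). With no job term, the normal growth value was 0.14 without the 3 normal growth arrays of job A, and the drought value was 0.76 without *osnadk1* drought replicates 1 and 2. Each rests on 1 *osnadk1* array in that condition. *SLR1* differed by 0.08 ± 0.29 under normal growth (limma, adjusted p = 0.969), while the drought arrays gave 0.47 ± 0.29 (limma, adjusted p = 0.999), and with a job term by 0.22 ± 0.19 and 0.69 ± 0.19 (limma, adjusted p = 0.808 and 0.279). WT drought replicate 1 was the lowest drought array for all 4 genes. Without it the drought differences of *GA20OX2*, *GA20OX3* and *GID1* were -0.04, -0.59 and -0.07, and that of *SLR1* was 0.12. No genotype by drought interaction was called, here or among all probe sets (0%), and none of the 4 passed an unadjusted p of 0.05, where 3.96% of all probe sets did. The lowest adjusted p was 0.975 (limma).

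*GA20OX3*, *GID1* and *SLR1* were lower in job A than in job B in both conditions, though none passed the test. Under normal growth the difference was -0.67 ± 0.40 for *GA20OX3* (limma, adjusted p = 0.261), -0.57 ± 0.23 for *GID1* (limma, adjusted p = 0.103) and -0.42 ± 0.19 for *SLR1* (limma, adjusted p = 0.152). *GA20OX3* and *SLR1* arrays did not overlap there, as was the case for 38.3% of all probe sets. Under drought, where 0 of 4 genes and 1.61% of all probe sets were called, the 3 genes passed an unadjusted p of 0.05, as did 13.8% of all probe sets. The difference was -1.38 ± 0.40 for *GA20OX3* (limma, adjusted p = 0.142), -0.87 ± 0.23 for *GID1* (limma, adjusted p = 0.108) and -0.69 ± 0.19 for *SLR1* (limma, adjusted p = 0.132). *GA20OX2* differed by -0.55 ± 0.35 (limma, adjusted p = 0.539). Of the drought and ABA probe sets, 5 of 13 were lower in job A under drought and none was higher.

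**Figure D3:**
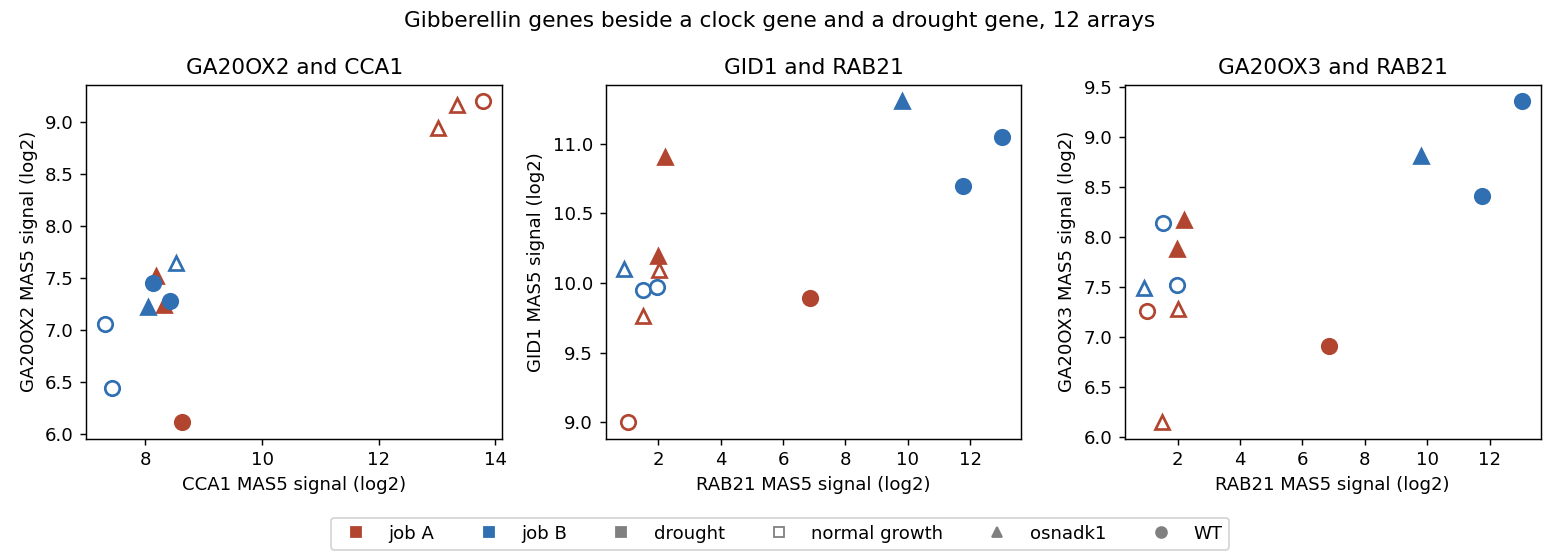
Log2 MAS5 signal of *GA20OX2* against *CCA1*, and of *GID1* and *GA20OX3* against *RAB21* (the first of its 2 probe sets), 1 point per array (colour, job; filled, drought; open, normal growth; triangle, *osnadk1*; circle, WT). In the *CCA1* plot the 3 normal growth arrays of job A form a cluster of their own, with *CCA1* above 13. In the *RAB21* plots the 3 job B drought arrays lie at 9.82 or above, the WT job A drought array at 6.85, and the other 8 arrays at or below 2.20.

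The probe sets of other named genes most like each of the 4 were ranked among 2688 by Pearson's r over the 12 arrays, given here as a description beside r over the 9 arrays other than job A normal growth, since those 3 form a cluster. For *GA20OX2* they were the thioredoxin gene *OsTrx10* (0.95, and 0.79 over 9), the NAC transcription factor gene *NAC071* (0.95, and 0.82) and the metal tolerance protein gene *MTP5* (0.95, and 0.71). For *GA20OX3* they were the CBL-interacting kinase gene *CIPK16* (0.91, and 0.93), the Aux/IAA gene *IAA3* (0.90, and 0.89) and *BADH*, of betaine aldehyde dehydrogenase (0.88, and 0.81). For *GID1* they were *OsC3H4* (0.90, and 0.80), *ABIL1* (0.87, and 0.75) and *TYW1* (0.87, and 0.93). For *SLR1* they were *OsNTRA* (0.86, and 0.91), the ethylene receptor gene *ETR3* (0.86, and 0.90) and the homeobox gene *HOX5* (0.85, and 0.85). Arrays share job and condition in all of these, and *CCA1* and *GA20OX2* followed each other only through the job A cluster, with r of 0.16 over the 9.

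Further gibberellin genes were taken from lists by role. In the early synthesis steps, *CPS1*, *KS1*, *KO2* and *KAO* gave 5 tested probe sets, with 2 for *KO2*. The cytochrome P450 gene *EUI1*, which inactivates gibberellins, gave 1, signalling genes 6 and target genes 3. None of 14 further GA oxidase symbols matched a gene. In the 5 comparisons of genotype, drought and their interaction, 0 of these 15 probe sets were called. Under normal growth *KAO* differed between *osnadk1* and WT by -0.71 ± 0.32 (limma, unadjusted p = 0.0476, adjusted p = 0.819). Its arrays did not overlap, at 6.80, 6.94 and 6.08 in *osnadk1* and 7.05, 7.81 and 7.08 in WT. Of all probe sets, 6.04% passed an unadjusted p of 0.05 there and 7.81% had no overlap. The 3 probe sets listed as targets are of *AMY3D*, an alpha-amylase gene, and the cell wall genes *XTH8* and *EXPB3*. Whether these genes respond to gibberellin in these leaves was not tested. The median log2 difference between *osnadk1* and WT under drought was -0.12 for early synthesis, 0.05 for signalling and 1.47 for the listed targets. Over all probe sets it was 0.01. Under normal growth these medians were -0.13, -0.04 and -0.99, against -0.04 over all probe sets. The listed targets varied widely within groups. *EXPB3* ran from 3.83 to 10.38 on the *osnadk1* normal growth arrays and from 5.28 to 9.65 on those of WT. Under drought the tested *AMY3D* probe set was at 4.98, 6.39 and 4.88 in *osnadk1*, against 2.89, 1.67 and 4.85 in WT. A second *AMY3D* probe set, not tested, was at 4.32, 4.46 and 4.89, against 4.72, 4.09 and 4.93. That of *AMY1A*, also listed as a target, lay at 0 to 1.04 over all arrays and was not tested. The probe sets of *KS1*, *KO2*, *GAMYB* and *YAB1* are of the kinds that can bind transcripts of related genes. Between the jobs under normal growth 3 of the 15 were lower in job A, *EL1*, *D1* and *KS1*, and none was higher, where 15.4% of all probe sets were lower and 9.24% higher. The medians there were -0.24 for early synthesis, -0.50 for signalling and 0.03 for the target genes, against -0.09 over all probe sets. Under drought 0 of 15 were called between the jobs.

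*EL1*, a casein kinase that phosphorylates SLR1, had signals of 10.52 and 10.60 in *osnadk1* and 10.83 in WT on the normal growth arrays of job A, against 11.49 in *osnadk1* and 11.53 and 11.33 in WT on those of job B. It was lower in job A by a log2 difference of -0.76 ± 0.12 (limma, adjusted p = 0.00102). *D1*, the alpha subunit of the heterotrimeric G protein, which takes part in gibberellin signalling, was at 10.56, 10.33 and 10.61 in job A, against 11.26, 11.01 and 10.83 in job B, a difference of -0.56 ± 0.13 (limma, adjusted p = 0.0112). *KS1*, ent-kaurene synthase, was at 9.79, 10.34 and 9.58 in job A, against 10.35, 10.58 and 10.71 in job B, a difference of -0.68 ± 0.20 (limma, adjusted p = 0.0310). For each of these the jobs did not overlap, as for 38.3% of all probe sets.

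Under drought in job A, 2 of the 15 rose, *EL1* by 0.48 ± 0.11 (limma, adjusted p = 0.0121) and *D1* by 0.42 ± 0.13 (limma, adjusted p = 0.0399), and none fell, where 15.7% of all probe sets were higher and 8.86% lower. In job B 0 of 15 were called, with *EL1* at -0.03 ± 0.11 and *D1* at -0.15 ± 0.13. Their interactions of job and drought, 0.51 ± 0.17 for *EL1* and 0.57 ± 0.19 for *D1*, did not pass the test (limma, adjusted p = 0.0730 and 0.0783). *YAB1*, a YABBY transcription factor gene that responds to gibberellin, had its highest signals, 10.58 and 10.32, on the WT job B arrays of normal growth, against 6.70 to 9.55 on the other arrays, and its job difference of -1.83 ± 0.65 did not pass the test (limma, adjusted p = 0.0675). *SLRL1*, a DELLA-like gene without the DELLA domain, ranged from 2.17 to 6.27 and passed no test. 

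**Figure D4:**
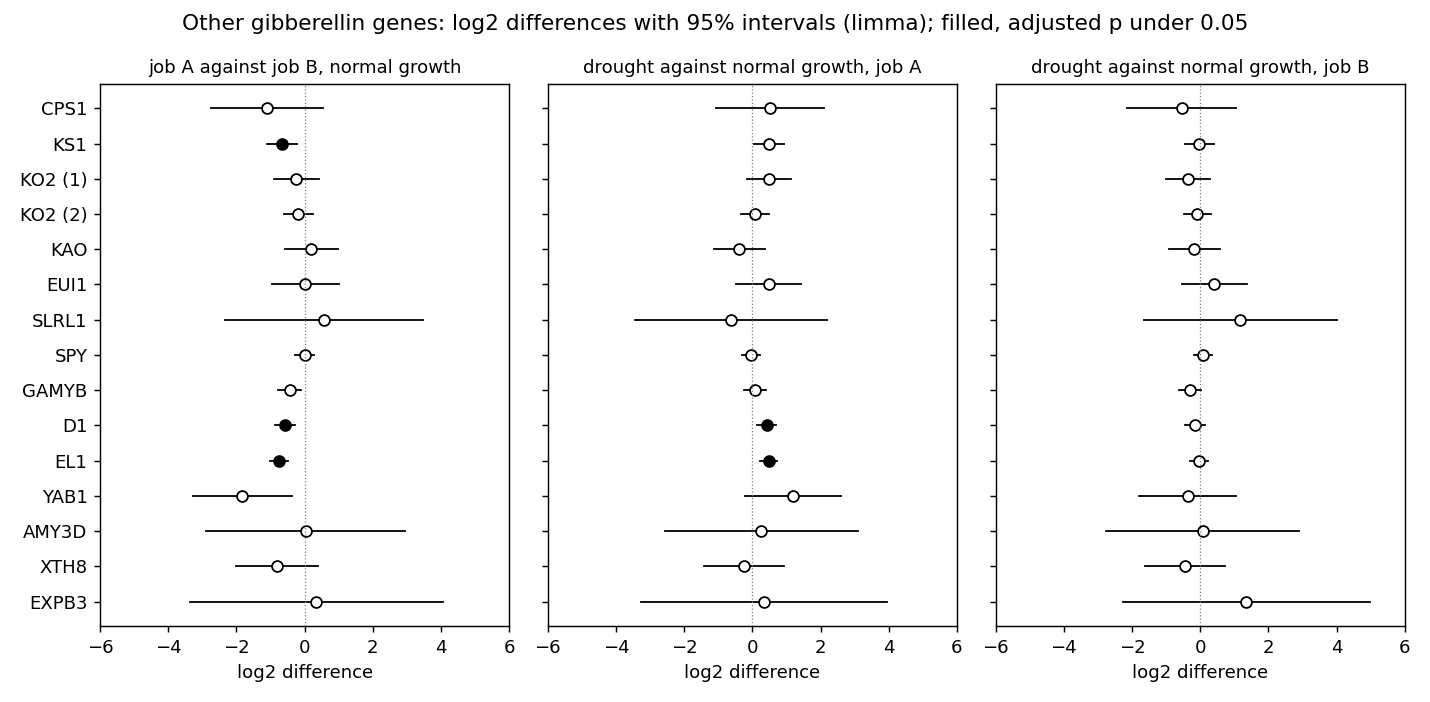
Log2 difference (horizontal axis, with its 95% interval) of 15 probe sets of other gibberellin genes in job A against job B under normal growth, and in drought against normal growth within job A and within job B, filled where the limma adjusted p is under 0.05. *KS1*, *D1* and *EL1* are filled in the first panel, *D1* and *EL1* in the second and none in the third.

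Os04g0407800 and Os09g0460300 are annotated by the study as a putative gibberellin 2-beta-dioxygenase and a putative gibberellin receptor of the GID1L2 kind. They were listed there for their difference between the genotypes under drought, so their drought values are a description without a test. Os04g0407800 was at 9.32, 10.04 and 9.56 in *osnadk1*, against 8.00, 8.59 and 8.99 in WT. Os09g0460300 was at 9.04, 9.29 and 9.62 in *osnadk1*, against 8.01, 8.03 and 8.76 in WT. For both the genotypes did not overlap under drought, as for 15.2% of all probe sets. Under normal growth, which that choice did not use, *osnadk1* differed from WT by 0.36 ± 0.33 for Os04g0407800 (limma, adjusted p = 0.872) and 0.28 ± 0.32 for Os09g0460300 (limma, adjusted p = 0.891).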

How the data were processed

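RNA was hybridised to Affymetrix rice genome arrays, 12 in all. The authors deposited MAS5 signals on the log2 scale (version not given in the sources used here). Their linear 2% trimmed mean is close to 500.1 on every array, so each array had been scaled to one target. Detection calls were not used here. The number of arrays limits the precision.

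No further normalization was applied. Of 57381 probe sets, 123 controls were left out, and 32110 were tested, those at or above the median of the array on 3 or more arrays. Genes were named through RefSeq's gene table and the platform annotation (22436 probe sets with 1 gene, 95 with several, 34850 with none). Linear models in limma 3.58.1 (R 4.3.3, data.table version 1.17.8) had a mean-variance trend, and p-values were adjusted by Benjamini-Hochberg over all probe sets tested, with a call at an adjusted p under 0.05. One model held the 4 group means, the other the 4 means of job and condition with the genotype difference in each condition. The models were also run on simulated data, independent noise with added differences and without the job pattern of these arrays. Drought within a job and the interactions were not among the simulated comparisons. The genes and lists were chosen with earlier results of these data known. All found members are named, up to 6 genes of each gibberellin list and up to 4 of each marker list, and the 3 probe sets most like each gene. Os04g0407800 and Os09g0460300 were added after the values were seen. Same-numbered arrays were not treated as pairs. Alternatives were quantile normalization, median centring, no filter or one on the mean, a floor at percentile 25, no variance trend, a fit to the compared groups alone, a block for replicate or for job, each array left out, and, added after seeing the data, a job term for each condition, leaving out the 3 normal growth arrays of job A, leaving out *osnadk1* drought replicates 1 and 2, and the job by drought interaction.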

Additional observations from a re-analysis of the deposited data

Results flagged for a closer look

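For *GA20OX2*, the *sd1* gene, the drought difference was tested between the jobs. The job by drought interaction was -2.47 ± 0.50 on the log2 scale (limma, adjusted p = 0.00892), with a drought difference of -2.17 in job A, where all 3 drought arrays lay below all 3 normal growth arrays, and 0.30 in job B. Without WT drought replicate 1 the interaction was -1.77 and was no longer called (limma, adjusted p = 0.0588). The comparison was added after the job differences were seen. The 3 normal growth arrays of job A also have *CCA1* above 13, and its part in the result was not tested.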

How the results depend on the processing

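The 4 genes gave 40 results under up to 24 alternative settings, 836 values in all, of which 794 kept their direction and side of the threshold, 14 lost and 8 gained a call, and 20 changed sign, 14 of those when 1 array was left out. The cause was not tested. The number of the 4 genes called for drought in job A was 1 in place of 2 without a filter and without a variance trend, and 1 to 2 over the arrays left out. For drought in job B it was 1 in place of 0 (*GID1*) with quantile normalization, with median centring and without the 3 normal growth arrays of job A, and 0 to 1 over the arrays left out. Leaving out arrays gave 0 to 2 for job A against job B under normal growth, 0 to 1 under drought and 0 to 1 for the job by drought interaction. The GID1 difference between jobs passed the test without *osnadk1* normal growth replicate 3 in both conditions (-0.96 and -0.87) and under drought without WT normal growth replicate 1 (-0.87), and *SLR1* for drought in job A did so with quantile normalization (-0.58; limma, adjusted p = 0.0357). 

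Signs changed only for values that had not passed the test. Without the 3 normal growth arrays of job A, *GA20OX2* for drought in WT was 0.20 and *GID1* genotype by drought 0.11. Without *osnadk1* drought replicates 1 and 2, *SLR1* for drought in *osnadk1* was 0.12 and *GID1* genotype by drought 0.42. Both of these settings leave 1 *osnadk1* array in the condition concerned. With a job term for each condition, genotype by drought was 0.19 for *GA20OX2* and 0.0090 for *GID1*. Over the arrays left out, *osnadk1* against WT under normal growth ran from -0.13 to 0.21 for *SLR1*, and under drought from -0.038 to 0.63 for *GA20OX2*, -0.59 to 0.63 for *GA20OX3* and -0.072 to 0.56 for *GID1*. Drought ran from -1.18 to 0.20 for *GA20OX2* in WT, -0.20 to 0.012 for *SLR1* in *osnadk1* and -0.33 to 0.15 for *SLR1* in job B, *GID1* genotype by drought from -0.42 to 0.23, *GA20OX2* in job A against job B under drought from -1.25 to 0.16, and job by drought from -0.69 to 0.094 for *GID1* and -0.63 to 0.095 for *SLR1*.

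Same-numbered arrays of the genotypes correlated by -0.265 to 0.319 in their deviations from the group means. Replicates 1 and 3 share a job in both genotypes and gave 0.176 to 0.319. Replicate 2 is in job A for *osnadk1* and in job B for WT, and gave -0.265 and -0.020. Since number and job run together, these values cannot decide whether the numbers mark pairs. They were not taken as pairs. With the replicate block 0 of the 4 genes were called in each of the 5 comparisons of the groups, and of all probe sets 46 against 47 for the genotypes under normal growth, 13 against 20 under drought, 0 against 2 for drought in WT and 0 against 0 for drought in *osnadk1*. MAS5 signals below the array median, such as the second *GID1* probe set, bound what the arrays can show.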
